A study of Arabidopsis thaliana with 9 samples.

Results

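ARR15 (AT1G74890), a type-A cytokinin response regulator gene, and UGT76C1 (AT5G05870), a cytokinin glucosyltransferase gene, were followed in root tips of Arabidopsis thaliana HD-ZIP III mutants. The genes were chosen by symbol: ARR followed by a number only, with the brightest probe set per gene and always including ARR15, plus UGT76C1. Both genes were thus named in the rule, which was set with earlier results of these data known. Of 13355 genes with a probe set annotated to 1 gene, 2 met this, each with 1 probe set (262212_at for ARR15 and 250750_at for UGT76C1). The platform annotation used here names 5 further response regulators under RR symbols, which RefSeq pairs with ARR synonyms. They stood outside the rule and are given for comparison.

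RNA came from the terminal 0.5 mm of primary roots 4 days after germination, from about 200 hand-cut tips per replicate, with 3 biological replicates per genotype and no treatment. Wild type was Col er-2, so the reference itself carries er-2, and the labels do not say whether the mutants do. Alleles of the triple mutant were phb-13, phv-11 and cna-2, and the quadruple mutant further carried rev-6. Sample titles write phb13 for the triple mutant but phb1 for the quadruple mutant, which leaves the PHB allele of the latter unsettled. Quadruple homozygotes were taken out of a population segregating for rev-6 by their radial cotyledons, and their labels give the PHV allele both as phv-11 and as phv-6. Every value is a log2 signal from the deposited table of 9 Affymetrix ATH1 arrays, in which 22746 probe sets were tested.

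Cytokinin is sensed by receptor histidine kinases, and phosphate then passes through phosphotransfer proteins to response regulators in the nucleus. Type-B regulators are transcription factors that the phosphate activates, and among their direct targets are the type-A genes, whose products damp the same signal. In the root tip cytokinin promotes the step from division to differentiation and takes part in patterning the vascular cylinder, and ARR15 is known for its part in setting up the embryonic root. UGT76C1 attaches glucose to ring nitrogens of cytokinins, which yields conjugates regarded as inactive. HD-ZIP III proteins pattern the root vasculature, and PHB has been linked to cytokinin synthesis in the root.

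PHV, the target of an allele in both mutants, gave log2 signals of 7.14 to 7.28 on wild-type arrays, 4.71 to 4.77 on triple-mutant arrays and 5.03 to 5.22 on quadruple-mutant arrays. Its level fell in both mutants against wild type (limma adjusted p = 8.49e-07 and 5.70e-06) and the log2 signal of the quadruple mutant exceeded that of the triple by 0.40 (limma adjusted p = 0.0405). Other HD-ZIP III genes were not analysed here. Array medians lay between 5.79 and 5.89 in wild type and between 5.91 and 5.95 in the mutants. The averaged hybridization controls lay at 10.16 to 10.29 on the triple-mutant arrays, at 9.83 to 10.07 in wild type and at 9.94 to 10.02 in the quadruple mutant. Of 13 root meristem markers the 2 that are listed, BBM and AGL42, gave signals of 7.68 to 8.38 and 5.09 to 6.76. Of 6 root hair and differentiation markers, EXPA7 and EXPA18 are listed and gave 3.48 to 4.14. Markers of root cap, mature xylem and shoot were not analysed here. With 3 arrays per genotype, array number limits precision throughout.

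ARR15 was highest in the quadruple mutant. Its log2 signal there was 5.51, 4.96 and 5.16 in replicates 1 to 3. It was 4.60, 4.41 and 4.60 in the triple mutant and 4.25, 3.90 and 4.60 in wild type. All 3 quadruple-mutant arrays lay above the other 6 arrays, whereas the triple mutant and wild type overlapped, with wild-type replicate 3 at the level of the highest triple-mutant arrays. The same separation, with the quadruple mutant above both other genotypes, was found in 2.7% of all probe sets.

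The mean of the quadruple mutant was 5.21 ± 0.28 (SD, n = 3), that of the triple mutant 4.54 ± 0.11 (SD, n = 3) and that of wild type 4.25 ± 0.35 (SD, n = 3). Across the 3 genotypes ARR15 passed limma's F-test by a narrow margin (adjusted p = 0.0497), as did 2.08% of probe sets (5.83% with the replicate number as a block), while UGT76C1 did not (adjusted p = 0.0658). With the replicate block the F-test called both ARR15 (adjusted p = 0.00537) and UGT76C1 (adjusted p = 0.0262). ARR15 also passed the F-test with robust moderation and a variance trend (adjusted p = 0.0397). The ARR15 call ended after quantile normalization (adjusted p = 0.0744), after median centring (adjusted p = 0.0586) and in 8 of the 9 fits without 1 array. In those 8 fits the adjusted p ran from 0.0690, without quadruple-mutant replicate 2, to 0.179, without quadruple-mutant replicate 1, and it was 0.0183 without wild-type replicate 3. In whole root tips, a change in the number of expressing cells and a change in RNA per cell cannot be told apart.

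**Figure D1:**
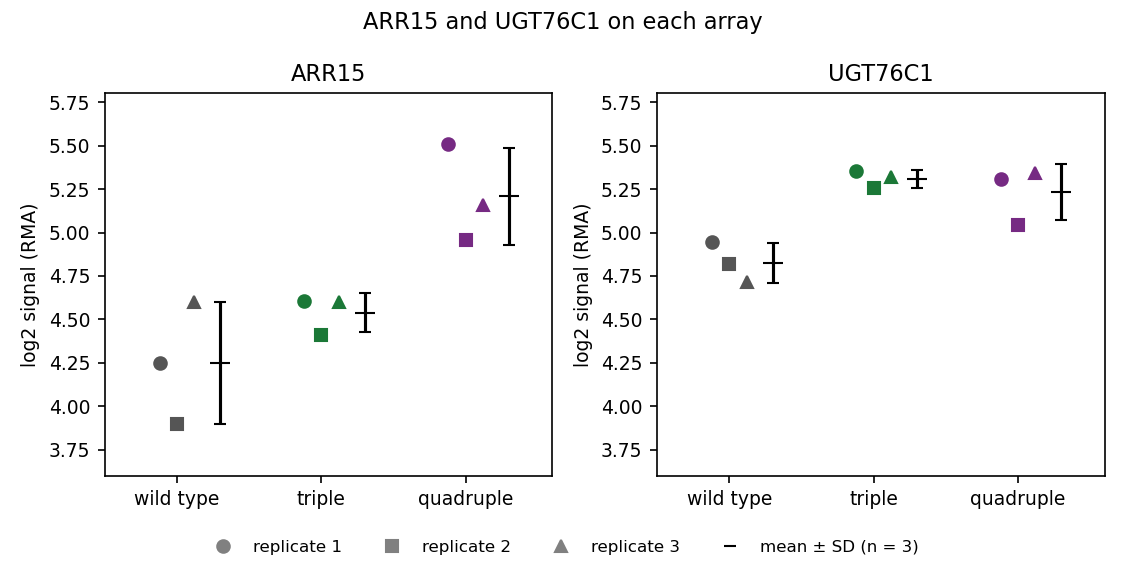
Log2 signal (RMA, y axis) of ARR15 and UGT76C1 on each of the 9 arrays, by genotype, with symbols for the replicate number and black bars for the mean ± SD of 3 arrays. ARR15 lies above 4.95 on the quadruple-mutant arrays and at or below 4.60 on the others, whereas UGT76C1 lies at or below 4.95 in wild type and at or above 5.05 in both mutants.

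The comparison with wild type asks what the mutations in PHB, PHV, CNA and REV change together, with any difference at er-2 included. ARR15 was 1.94-fold higher in the quadruple mutant (95% interval 1.47 to 2.57), a log2 difference of 0.96 (SE 0.18), but did not pass over all probe sets (limma adjusted p = 0.168, unadjusted p = 3.41e-04). In this comparison 0.044% of probe sets passed, and 0.295% did with the replicate number as a block. By size of the log2 difference ARR15 ranked 21 of 22746, and by unadjusted p it ranked 45. ARR15 was chosen by name with earlier results of these data known, so its ranks and unadjusted p are description only. The quadruple-mutant array exceeded the wild-type array of the same number by 1.26, 1.06 and 0.56 on the log2 scale.

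The comparison with the triple mutant asks what rev-6 adds, provided the other alleles are shared, which the labels leave unsettled for PHV and PHB. ARR15 was 1.59-fold higher in the quadruple mutant than in the triple mutant. The log2 difference was 0.67 (SE 0.18, limma adjusted p = 0.115), with a 95% interval from 0.27 to 1.08. Same-numbered arrays deviated together in this pair of genotypes, and with the replicate number as a block ARR15 passed (limma adjusted p = 0.0167, SE 0.13). In the blocked fit 4.9% of all probe sets passed, against 2.22% without the block. The same-numbered differences were 0.90, 0.55 and 0.56, all positive. This comparison and the one with wild type share the quadruple-mutant arrays.

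Comparing triple mutant with wild type, the log2 difference of ARR15 was 0.29 (SE 0.18, limma adjusted p = 0.527), with a 95% interval from -0.12 to 0.69. That interval reaches from a slightly lower level to a 1.62-fold higher one. The difference was 0.11 without wild-type replicate 2, 0.46 without wild-type replicate 3 and 0.19 after median centring, and it passed in none of these settings. The order of the levels was therefore quadruple mutant, triple mutant, wild type, of which the last 2 did not differ beyond their spread.

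ARR15 was a dim and variable probe set. Its signal stood at or above 27.7% of probe sets on the lowest array and 46.7% on the highest, below the array median throughout. Its pooled SD within genotypes was 0.27, larger than in 90.9% of probe sets, against a median of 0.14. No detection call was used, so levels of this size may hold background hybridization.

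UGT76C1 was higher in both mutants than in wild type, by about the same amount. Its log2 signal was 4.95, 4.82 and 4.72 in wild type, 5.35, 5.25 and 5.32 in the triple mutant and 5.31, 5.05 and 5.35 in the quadruple mutant. All 6 mutant arrays lay above the 3 wild-type arrays, a separation found in 2.15% of probe sets. The 2 mutants overlapped. Wild type averaged 4.83 ± 0.12 (SD, n = 3), the triple mutant 5.31 ± 0.05 (SD, n = 3) and the quadruple mutant 5.23 ± 0.16 (SD, n = 3).

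UGT76C1 rose 1.40-fold in the triple mutant (95% interval 1.19 to 1.64), equal to 0.48 on the log2 scale (limma adjusted p = 0.0489, SE 0.10). The genotypes' same-numbered arrays deviated together here too, and the differences were 0.41, 0.44 and 0.61. In this comparison 1.48% of probe sets passed with higher levels and 1.73% in either direction (5.06% with the replicate block), and UGT76C1 ranked 381 by unadjusted p among the 393 that passed. The call was close to the threshold and ended in 7 of the 9 fits without 1 array: it held without wild-type replicate 1 (adjusted p = 0.0411) or quadruple-mutant replicate 2 (adjusted p = 0.0380), and without any other array the adjusted p was 0.0650 to 0.170. It also ended after quantile normalization (log2 change 0.41, adjusted p = 0.0902) and median centring (0.38, adjusted p = 0.107), the latter lowering the median of all probe sets in this comparison from -0.017 to -0.12. With robust moderation and a variance trend the adjusted p was 0.0757, and with only the 6 arrays compared it was 0.0863. The UGT76C1 call stood when replicates were blocked (limma adjusted p = 0.0172, SE 0.094). It also stood when probe sets with a mean log2 value below 5 were left out (adjusted p = 0.0437).

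The wild-type array medians were themselves the lowest of the series, and the hybridization controls were highest on the triple-mutant arrays, as given above. After subtraction of each array's median UGT76C1 lay at -1.10 to -0.95 on wild-type arrays, -0.68 to -0.57 on triple-mutant arrays and -0.86 to -0.60 on quadruple-mutant arrays. The part of the hybridization controls in the UGT76C1 values was not tested.

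In the quadruple mutant UGT76C1 stood 1.33-fold above wild type (95% interval 1.13 to 1.55), with a log2 difference of 0.41 (SE 0.10, limma adjusted p = 0.286) that did not pass. Between the quadruple and the triple mutant the log2 difference was -0.077 (SE 0.10, limma adjusted p = 0.928), with a 95% interval from -0.31 to 0.15. Wild type was the lowest, and the order of the 2 mutants was within their spread. Its signal stood at or above 40.9% to 45.3% of probe sets on every array, and its pooled SD of 0.12 was below the median of 0.14.

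**Figure D2:**
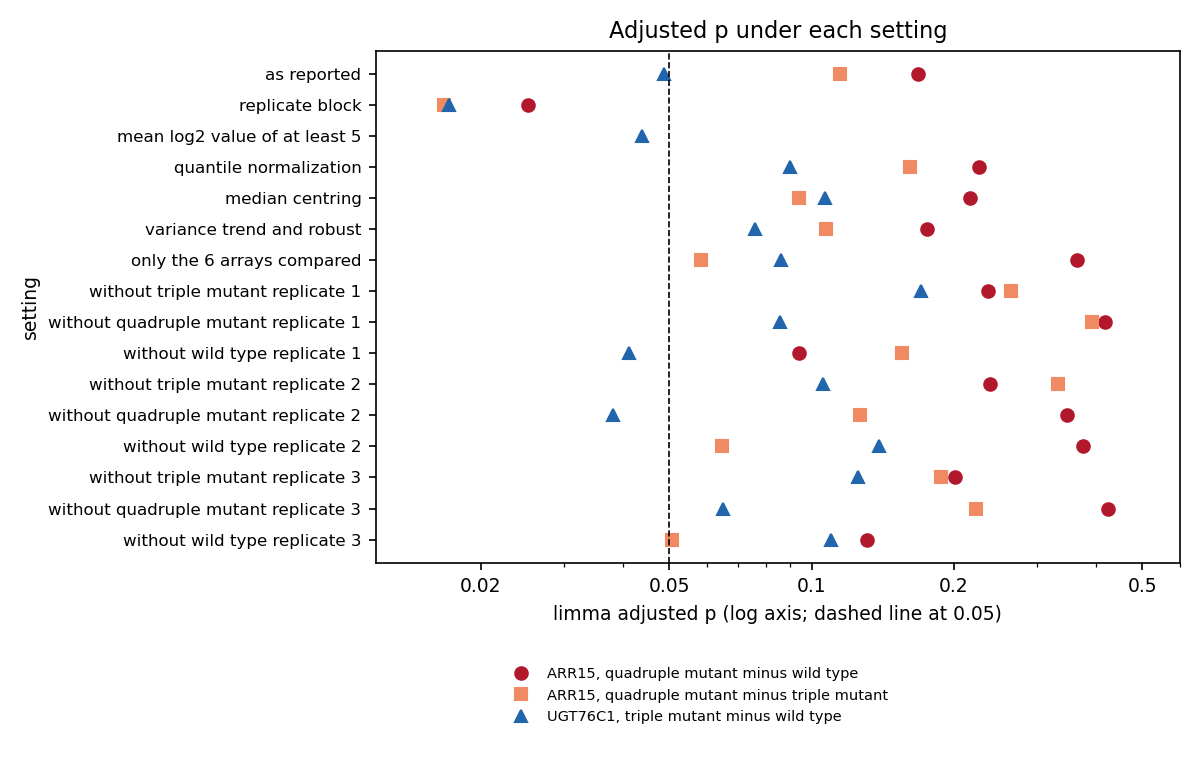
Limma adjusted p (x axis, log scale, dashed line at 0.05) under each setting (y axis) for ARR15 in the quadruple mutant against wild type and against the triple mutant, and for UGT76C1 in the triple mutant against wild type. With the replicate block all 3 lie left of the line, and ARR15 against the triple mutant lies at 0.0507 without wild-type replicate 3.

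The other response regulators named in the annotation used here were dim, and none of their differences between genotypes passed. Any response regulators on unnamed probe sets were not examined. ARR16, a type-A gene like ARR15, ARR18 and ARR19, which encode type-B regulators, ARR22, a type-C gene, and ARR23 gave log2 signals between 2.77 and 3.79 over all 9 arrays. ARR16 gave 2.77 to 3.08, where at most 4.42% of probe sets stood at or below it. The highest value was 3.79 for ARR22 in quadruple-mutant replicate 2.

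Of these 5 genes 0 passed in any of the 3 comparisons (limma adjusted p 0.562 or above, and 0 with an unadjusted p under 0.05). Their log2 differences lay between -0.18 and 0.00063 in the triple mutant against wild type, between -0.11 and 0.05 in the quadruple mutant against wild type, and between -0.07 and 0.23 in the quadruple against the triple mutant. The largest, 0.23 for ARR22 (SE 0.12, limma adjusted p = 0.586), came with a 95% interval from -0.05 to 0.51. For ARR16, the other type-A gene, the interval of the difference between quadruple mutant and wild type ran from -0.18 to 0.24, while that of ARR15 began at 0.56, and the 2 differences were not tested against each other. At signals this low a change in the transcript may not have been measurable.

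**Figure D3:**
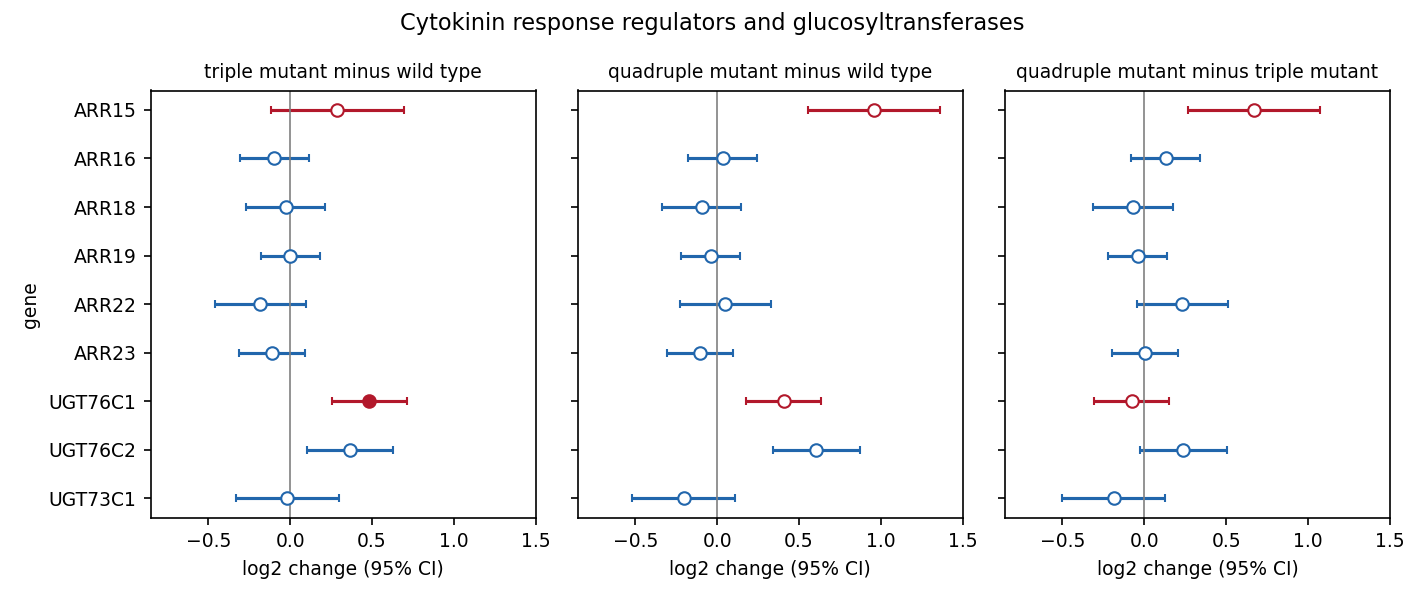
Log2 change (x axis) with its 95% confidence interval for 6 response regulator genes and 3 cytokinin glucosyltransferase genes (y axis) in the 3 comparisons, with ARR15 and UGT76C1 in red and a filled point where limma adjusted p was under 0.05. The 1 filled point is UGT76C1 in the triple mutant against wild type, and the intervals of the 5 other response regulators all include 0.

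Cytokinin genes were thinly covered by the annotation used here, in which 8730 of the 22746 tested probe sets are unnamed. Whether unnamed probe sets measure further genes of the pathway was not examined. Of 90 genes on lists of receptors, phosphotransfer proteins, response regulators, response factors, synthesis, oxidation, glucosylation, transport and F-box regulators, 8 had a listed probe set, all of them response regulators or glucosyltransferases. Of the 8, 1 was higher and 0 lower in the triple mutant than in wild type, against the 1.73% of all probe sets called. The higher gene is UGT76C1 itself, so this count adds nothing to its result above. In the quadruple mutant 0 passed against wild type, where 0.044% of all probe sets did, and 0 against the triple mutant, where 2.22% did, so these counts of 0 were near the background. The 8 had a median log2 difference of -0.0083 in the triple mutant and 0.042 in the quadruple mutant against wild type, beside -0.017 and 0.0049 over all probe sets. Receptor, phosphotransfer, synthesis and oxidase genes were not analysed here.

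UGT76C2 (AT5G05860), the neighbour of UGT76C1 in the genome and a cytokinin N-glucosyltransferase gene too, had higher means in both mutants, though no difference passed. Its log2 signal was 6.23, 6.10 and 6.09 in wild type, 6.34, 6.52 and 6.66 in the triple mutant and 6.54, 6.78 and 6.92 in the quadruple mutant. No wild-type array reached a mutant array, as in 2.15% of all probe sets, and the mutants overlapped. On the log2 scale the triple mutant stood 0.37 above wild type (SE 0.12, limma adjusted p = 0.196) and the quadruple mutant 0.61 (SE 0.12, limma adjusted p = 0.168).

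Between the mutants neither gene's difference passed. For UGT76C2 the quadruple mutant's mean log2 signal exceeded the triple mutant's by 0.24 (SE 0.12, limma adjusted p = 0.531). UGT73C1, known to glucosylate cytokinins on oxygen, gave signals of 3.12 to 3.75 and log2 differences from -0.21 to -0.02 in the 3 comparisons, with adjusted p of 0.661 or above.

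The loci that follow UGT76C1 in the TAIR10.1 order, AT5G05880, AT5G05890 and AT5G05900, carry no gene name in the annotation used here and were picked for their position. Of 5 UGT76C genes looked for by name, 2 were found, UGT76C1 and UGT76C2. Whether these unnamed loci are further UGT76C genes was not examined. The unnamed loci had another pattern than UGT76C1. AT5G05900 gave 5.49, 5.14 and 5.71 in wild type, 5.67, 5.68 and 6.35 in the triple mutant and 4.87, 4.92 and 5.03 in the quadruple mutant. The quadruple-mutant arrays lay below all others, as in 1.25% of probe sets. Relative to the triple mutant, AT5G05900 was 1.95-fold lower (log2 change -0.96, SE 0.19, limma adjusted p = 0.0299), in a comparison with lower levels called in 1.66% of probe sets. The call ended without triple-mutant replicate 1 (adjusted p = 0.0571) or 2 (0.0507) and without quadruple-mutant replicate 1 (0.127), 2 (0.116) or 3 (0.0805).

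AT5G05880, adjacent to UGT76C1, was high in the triple mutant alone. It gave 8.29, 8.02 and 8.69 in wild type, 9.03, 8.98 and 9.21 in the triple mutant and 8.16, 8.25 and 8.59 in the quadruple mutant. Every triple-mutant array lay above the 6 other arrays, as in 4.37% of probe sets, and wild type and quadruple mutant overlapped. The log2 difference of the triple mutant from wild type was 0.74 (SE 0.17, limma adjusted p = 0.0636), and that of the quadruple from the triple mutant was -0.74 (SE 0.17, limma adjusted p = 0.0591). With the replicate block, which applies to both pairs of genotypes, these differences passed (limma adjusted p = 0.00347 and 0.00298).

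AT5G05890 lay at 7.70 to 8.27 on wild-type arrays, 8.04 to 8.14 on triple-mutant arrays and 7.62 to 7.88 on quadruple-mutant arrays, and passed in no comparison (limma adjusted p 0.478 or above). AT5G05840, on the other side, gave 3.17 to 3.85 and passed in none either (limma adjusted p 0.324 or above). Among the 6 listed genes in this stretch, UGT76C1 and UGT76C2 were thus the ones whose mutant arrays all lay above wild type in both mutants.

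**Figure D4:**
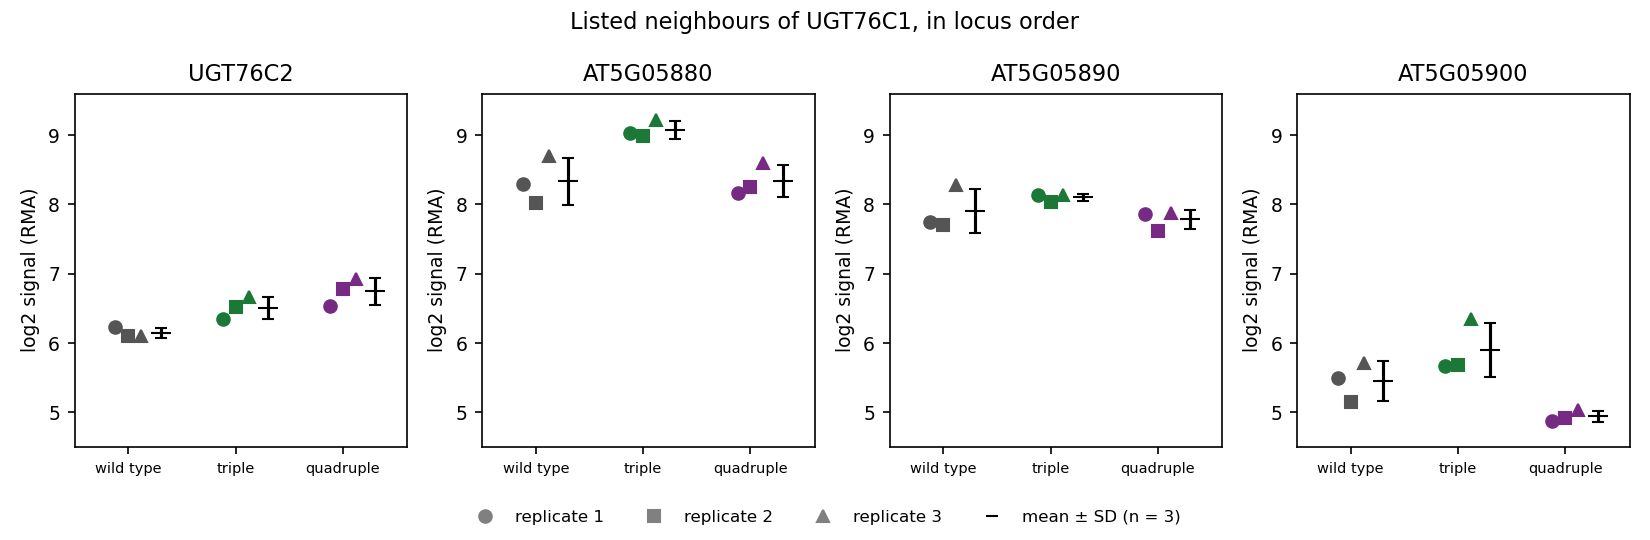
Log2 signal (RMA, y axis, same range in each panel) of UGT76C2, AT5G05880, AT5G05890 and AT5G05900 on each array, by genotype, with symbols for the replicate number and black bars for the mean ± SD of 3 arrays. UGT76C2 is lowest in wild type, AT5G05880 is highest in the triple mutant at 8.98 or above, and AT5G05900 is lowest in the quadruple mutant at 5.03 or below.

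Within the 47 measured genes with a UGT symbol, UGT76C1 had the 9th highest log2 change in the triple mutant and the 2nd highest in the quadruple mutant against wild type, where the family medians were 0.026 and -0.032. In the triple mutant 7 of the 47 rose against wild type, UGT76C1 among them, and 0 fell. Over all probe sets 1.48% were called higher and 56 of 22746 lower. In the quadruple mutant 0 passed against wild type, beside 0.044% of all probe sets. Between quadruple and triple mutant 7 fell and 0 rose, beside 1.66% of all probe sets called lower and 126 of 22746 called higher. UGT76C1 ranked 26 of 47 there.

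ARR15 and UGT76C1 followed different patterns over the 9 arrays, with a Pearson correlation of 0.54 between them. Among 6218 genes whose signal spanned at least 0.5 on the log2 scale, the 5 most like ARR15 were AT5G10650 (r = 0.97), PWD (r = 0.95), AT3G57030 (r = 0.94), AT3G55180 (r = 0.93) and AT3G14890 (r = 0.92). PWD encodes phosphoglucan water dikinase, an enzyme of starch breakdown. Their means rose in the order wild type, triple mutant, quadruple mutant, as that of ARR15 did. That order follows largely from picking them by correlation over the same arrays. Their log2 differences of the quadruple mutant from wild type, 0.32 to 0.80, were all smaller than the 0.96 of ARR15. None of these differences passed (limma adjusted p 0.186 or above).

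The 5 genes most like UGT76C1 were AT5G17340 (r = 0.94), AT3G60070 (r = 0.94), QQS (r = 0.93), AT5G35735 (r = 0.92) and SWEET2 (r = 0.92). QQS is an orphan gene that affects starch content, and SWEET2 encodes a sugar transporter. All 5 had their lowest mean in wild type, which picking by correlation with UGT76C1 favours. Of these, AT5G17340 (log2 change 1.03), QQS (7.22) and SWEET2 (0.91) rose in the triple mutant (limma adjusted p = 0.00843, 1.38e-05 and 0.00708). These correlations were taken over arrays of 3 genotypes that share any array-wide shift, and they describe likeness only. Tests of genes picked by them are no separate support.

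The stem-cell markers moved with ARR15 in part. BBM, an AP2 factor of root stem cells, averaged 7.75 in wild type, 7.90 in the triple mutant and 8.35 in the quadruple mutant. AGL42, a quiescent-centre gene, averaged 5.89, 5.26 and 6.59. Both rose between triple and quadruple mutant, by 0.45 (limma adjusted p = 0.0353) and 1.33 (limma adjusted p = 0.00149), but the mean of AGL42 was lower in the triple mutant than in wild type, where that of ARR15 was not. EXPA7 averaged 4.10, 3.92 and 3.89 and EXPA18 3.74, 3.73 and 3.75. The part of a different share of stem-cell tissue in the ARR15 values was not tested.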

How the data were processed

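Hand-dissected root tips were profiled on 1-colour Affymetrix ATH1 arrays, with 250 ng of total RNA labelled per array, per the labels' protocols. The deposited table holds log2 values, 1 per probe set and array; the submitters' processing notes name Affymetrix Expression Console, RMA and limma, without versions. RMA corrects background, quantile-normalizes and summarises probes, so values are relative to other transcripts. Of 22810 rows 64 were controls. Of the 22746 tested, 13513 have 1 gene in the platform annotation, 503 several and 8730 are unnamed here. Symbols were updated through Entrez identifiers with RefSeq TAIR10.1, where 77 found no match. No coordinates are printed, because the array annotation names no build.

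Limma 3.58.1 (R 4.3.3) fitted 1 mean per genotype over all 9 arrays, with empirical Bayes moderation and Benjamini-Hochberg adjustment over all probe sets. Genes with adjusted p under 0.05 were called. The fit was tested on simulated data. Python 3.11.15 was used for the rest. Alternatives were a replicate block, a mean log2 value of at least 5, median centring, quantile normalization, robust moderation with a variance trend, the 6 arrays compared, and leaving out each array. The genes and lists were chosen with earlier results of these data known, and named genes were the members, the called list genes, up to 4 others per list and the 5 most correlated genes of each member. The neighbours of UGT76C1 and ARR23 were added once the annotation was read.

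Replicate numbers come from the titles. Correlations of same-numbered arrays' deviations from the genotype means were 0.273, 0.330 and 0.408 for triple mutant and wild type, and 0.217, 0.340 and 0.515 for the 2 mutants, so these were read as pairs. For quadruple mutant and wild type they were 0.043, 0.342 and 0.360, and these were not. Pairs with the triple mutant nevertheless link these genotypes, and the block spans all genotypes in the same fit.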

Additional observations from a re-analysis of the deposited data

How the results depend on the processing

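For UGT76C1 in the triple mutant the log2 change was 0.41 after quantile normalization, 0.38 after median centring, and 0.48 with a variance trend (adjusted p = 0.0757) or with only the 6 arrays compared (adjusted p = 0.0863). In each of these 4 settings 0 of the 2 genes passed, against 1 as reported. The UGT76C1 call stood when replicates were blocked (adjusted p = 0.0172) and under the filter at 5 (adjusted p = 0.0437). Without 1 array the change ran from 0.43 to 0.54, and 0 or 1 gene passed. With the replicate block ARR15 passed against wild type, at 0.96 (adjusted p = 0.0251), and against the triple mutant, at 0.67, so that 1 gene passed in each comparison. The numbers were not read as pairs for quadruple mutant and wild type, though the block links all 3 genotypes in 1 fit. The blocked F-test called 2 genes (ARR15 at 0.00537, UGT76C1 at 0.0262). F-test calls fell to 0 after quantile normalization, median centring or the filter at 5, which removes ARR15. ARR15's F-test was 0.0744 and 0.0586 in the first 2. Without 1 array the F-test adjusted p ran from 0.0183 to 0.179 for ARR15 and from 0.0489 to 0.188 for UGT76C1, with 0 or 1 called. The cause was not tested. ARR15's difference from wild type ran from 0.78 to 1.14 and that from the triple mutant from 0.52 to 0.80 without 1 array. UGT76C1 between the mutants reversed to 0.017 without quadruple-mutant replicate 2. AT5G05880 between quadruple mutant and wild type, 0.0020 as reported, reversed to -0.035 (quantile normalization) and -0.086 (median centring), and ran from -0.16 to 0.18 without 1 array, with -0.017, -0.16 and -0.13 without wild-type replicates 1 and 2 and quadruple-mutant replicate 3. AT5G05890 there, -0.12 as reported, ran from -0.23 to 0.063, its value without wild-type replicate 3. The 5 other response regulators had 0 calls in every setting but the filter at 5, which removes them. The block changed no other call of ARR15 or UGT76C1. No gene outside the rule was a member, so no other member could be recomputed, and neither gene has another probe set. Promoter motifs were not searched.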
